A study of Mus musculus with 30 samples.

Results

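The regions described here are H3K27me3 domains, in a mouse cell model of commitment to myeloid differentiation, that were listed in every condition of an estradiol (E2) withdrawal series. They are the peaks of the H3K27me3 list of cells kept in E2 that overlapped, by at least 1 bp, a peak in each of the 4 other H3K27me3 lists. This held for 2915 of 4354 E2 peaks (67.0%, 95% Clopper-Pearson interval 65.5 to 68.4), and these made up 4.77 of the 5.47 Mb covered in E2 (87.1%). The members were chosen by the presence of H3K27me3 peaks in these 5 lists, so the count and the widths below are a description and carry no test. They are called constant domains here because they were listed throughout. The label speaks of presence and not of width, which differed between lists.

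The cells were ER-Hoxa9-Lys-GFP cells of C57BL/6 origin, grown in vitro in medium with stem cell factor. All groups carry the ER-Hoxa9 fusion, in which the transcription factor HOXA9 is joined to part of the estrogen receptor and acts while its ligand E2 is present. Chromatin immunoprecipitation with sequencing (ChIP-seq) gave 1 H3K27me3 list for each of 5 groups. The groups were continuous E2, 24 h without E2 then 96 h with it, 40 h without then 80 h with it, 72 h without then 48 h with it, and 120 h without E2. For H3K27ac there were 6 lists, with a further group of 56 h without E2 then 64 h with it. The times 24, 40, 56 and 72 h below mean the withdrawal that came before E2 was restored, and 120 h means withdrawal without restoration. Every group had 1 library per mark, so no difference has a replicate check and no p-value is given. The 95% intervals cover counting over peaks only, and neighbouring peaks are not independent. A longer withdrawal came with a shorter restoration, and their effects cannot be told apart. Whether the line is 1 clone is not given in the sources used here, and its cell type was not checked against marker genes, since no gene could be placed on these lists.

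H3K27me3 is the trimethyl mark that Polycomb repressive complex 2 (PRC2) places on a lysine of histone H3. The EED subunit of PRC2 binds the mark and stimulates the enzyme, and this read-and-write cycle lets a domain extend outward from a nucleation site and be passed on through cell division. In mammalian cells the nucleation sites are often CpG islands of silent developmental genes. H3K27ac is placed on the same lysine by the acetyltransferases p300 and CBP at active promoters and enhancers, so that a single histone tail cannot carry both. A bulk library, in contrast, can show both marks at a place where cells or alleles differ.

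The H3K27me3 lists held 4354 peaks in E2 and, by length of withdrawal, 5125, 3845, 5166 and 6927, over 5.47, 9.10, 6.08, 8.06 and 12.9 Mb. The H3K27ac lists held 24930 to 48710 peaks, except for 6356 at 56 h. The depth of sequencing is unknown. These files contain coordinates without a height or score, so a wider peak can stand for a wider mark or for more of it passing the authors' threshold.

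All constant domains have, by the rule, a linked peak in each list, where linked means overlapping the E2 peak. Of all 4354 E2 peaks, the lists of 24, 40, 72 and 120 h overlapped 85.3, 73.2, 82.1 and 89.2%. The 40 h list was the shortest, and it set the edge of the group most often. It alone was missing for 354 of the 1439 other E2 peaks, against 119 for the 72 h list alone, 66 for 24 h alone and 28 for 120 h alone. A further 234 of the other E2 peaks overlapped nothing in any of the 4 lists.

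Constant domains were wider in E2 than the peaks outside the group. Their median E2 width was 1183 bp (middle 50% from 560 to 2198 bp), against 381 bp for the other E2 peaks. The median was 302 bp for E2 peaks found in no other list, 341 bp for those found in 1 or in 2, and 459 bp for those found in 3. Width itself makes an overlap likelier, so nothing is read from this order. At the limit of the rule, chr3:68410356-68411438 was inside with an overlap of 2 bp at 24 h, and chr19:45347286-45347889 was outside by a gap of 3 bp at 40 h. In 108 members the smallest overlap was under 100 bp, and 326 of the other E2 peaks lay within 1 kb of a peak in every list they missed.

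The bases shared by all lists were a large part of these domains. Positions inside a constant domain that were covered in all 5 lists had a median of 823 bp per domain (middle 50% from 318 to 1774 bp) and summed to 3.84 Mb, or 80.6% of the E2 length. In 800 domains (27.4%) the whole E2 peak was covered in every list. In 21 domains no single base was shared by all 5, although each list touched the E2 peak. The outer limits reached in any list had a median of 4179 bp, and the median ratio of outer limits to shared bases, where any base was shared, was 4.35. The shared bases cannot exceed the E2 peak, while the outer limits can.

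Spans were wider than in E2 in all 4 other lists. The span is the distance from the first to the last base of the linked peaks. Its median over the 2915 domains was 1183 bp in E2 and, by length of withdrawal, 2897, 1896, 2301 and 3628 bp. The median ratio to E2 was 1.98 at 24 h (95% interval 1.91 to 2.07), 1.26 at 40 h (1.21 to 1.29), 1.54 at 72 h (1.49 to 1.62) and 2.53 at 120 h (2.42 to 2.64). Over all E2 peaks with a linked peak it was 2.04, 1.24, 1.51 and 2.59 in the same order. For the other E2 peaks with a linked peak it was 2.35, 1.08, 1.30 and 2.87, so widening was not particular to constant domains. At 120 h 94.6% of the constant domains were wider than in E2 (92.0% of all E2 peaks with a linked peak), and at 40 h 69.5% (68.2%). This order of medians is also the order of the total length covered by each list, from 5.47 Mb in E2 over 6.08, 8.06 and 9.10 to 12.9 Mb. The part of covered length in the widths was not tested. With each list held to its 3845 widest peaks, the number of peaks in the shortest list, the median ratio at 120 h was 2.48, against 2.53 in the full lists. This cut leaves the width of each kept peak as it was. It evens the number of peaks and not the covered length, so nothing on covered length is read from it. A search for overlap also finds wide peaks more easily than narrow ones, while E2 peaks enter as they are.

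**Figure D1:**
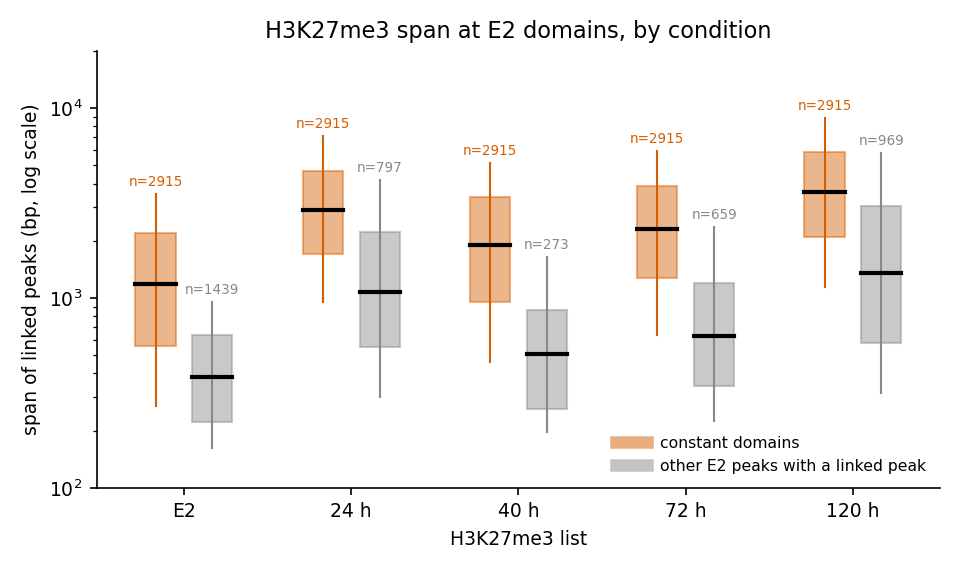
Span of the H3K27me3 peaks linked to E2 domains in each list (bp, log axis), with the median as a black line, the middle 50% as a box and the 10th to 90th percentile as a thin line, for 2915 constant domains and for the other E2 peaks that had a linked peak. The median of the constant domains is lowest in E2 at 1183 bp and highest at 120 h at 3628 bp, with 40 h the nearest to E2.

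A span at least 1.5-fold wider than in E2 was found for 2177 of the 2915 domains at 120 h (74.7%), where 73.7% of all E2 peaks with a linked peak passed this fold. The figures were 1818 domains at 24 h (62.4%, background 62.8%), 1208 at 40 h (41.4%, background 41.2%) and 1500 at 72 h (51.5%, background 50.3%). These contrasts chose the members and the members are most of the background, so nothing is read from the shares. Spans at least 1.5-fold narrower were found for 41 domains at 120 h (1.41%, background 2.81%), 88 at 24 h (3.02%, background 4.96%), 297 at 40 h (10.2%, background 11.4%) and 129 at 72 h (4.43%, background 6.13%).

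Several E2 domains often lay under 1 peak of another list, and such a peak enters the span of each of them. At 120 h 483 peaks each joined 2 or more constant domains and took in 1120 of the 2915 (38.4%). The 24 h list joined 1030 domains (35.3%), the 72 h list 805 (27.6%) and the 40 h list 713 (24.5%). The share joined among all E2 peaks was not computed, so joining is not read as a trait of constant domains. The widest case joined 9 domains under 1 peak of 34310 bp at 24 h (chr15:102786198-102820507). To count each base once, the peaks of all 5 lists were joined where they overlapped, which gave 2184 loci with at least 1 constant domain. These held on average 1.48 peaks in E2 and 1.14 at 120 h. The median covered length per locus was 1652 bp in E2 and 2659, 1960, 2362 and 3288 bp in the later lists. The median ratio to E2 was then 1.47, 1.12, 1.31 and 1.78 in the order of withdrawal time (1.73 to 1.83 at 120 h). The order of the conditions was the one seen in the spans, with smaller ratios.

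How often a peak passed both edges of the E2 domain differed between lists. At 120 h it did so in 2401 domains (82.4%, against 76.8% of all E2 peaks with a linked peak). It passed 1 edge in 457 (15.7%, against 20.2%) and lay inside both edges in 55 (1.89%, against 2.94%). Both edges were passed in 64.3% of the domains at 24 h and 60.0% at 72 h. At 40 h both were passed in 1198 domains (41.1%, against 39.3%) and 1 edge in 1281 (43.9%, against 45.2%). The median length added at 120 h was 742 bp at the lower coordinate and 716 bp at the higher one. At 24 h the medians were 383 and 397 bp, at 72 h 180 and 144 bp, and at 40 h 48 and 58 bp. Over all E2 peaks with a linked peak the medians were 606.5 and 604 bp at 120 h and 306.5 and 332 bp at 24 h. At 72 h they were 122 and 102.5 bp there, and at 40 h 44 and 49 bp. At 40 h 14.7% of the domains lay inside both E2 edges, against 15.2% of all E2 peaks with a linked peak. The added lengths on the 2 sides of a domain were weakly related across domains, with a Spearman correlation of 0.17 at 120 h (n = 2915 domains of the same pair of libraries, given as a description).

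Distance from the E2 edge showed how far the peaks reached. A position 0.5 kb outside the 5830 edges was covered at 59.4, 46.2, 35.1 and 27% of edges in the lists of 120, 24, 72 and 40 h. In E2 it was covered at 0.0%, since in each list the smallest gap between neighbouring peaks was 585 bp. At 2 kb the shares were 31.2, 23.9, 20.8 and 15.8% in the same order, and 13.4% in E2, where the peak met is a neighbouring one. At 10 kb they were 11.2, 8.15, 7.39, 5.92 and 4.87%. The excess over E2 was thus 17.8 points at 2 kb and 6.30 points at 10 kb for the 120 h list.

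**Figure D2:**
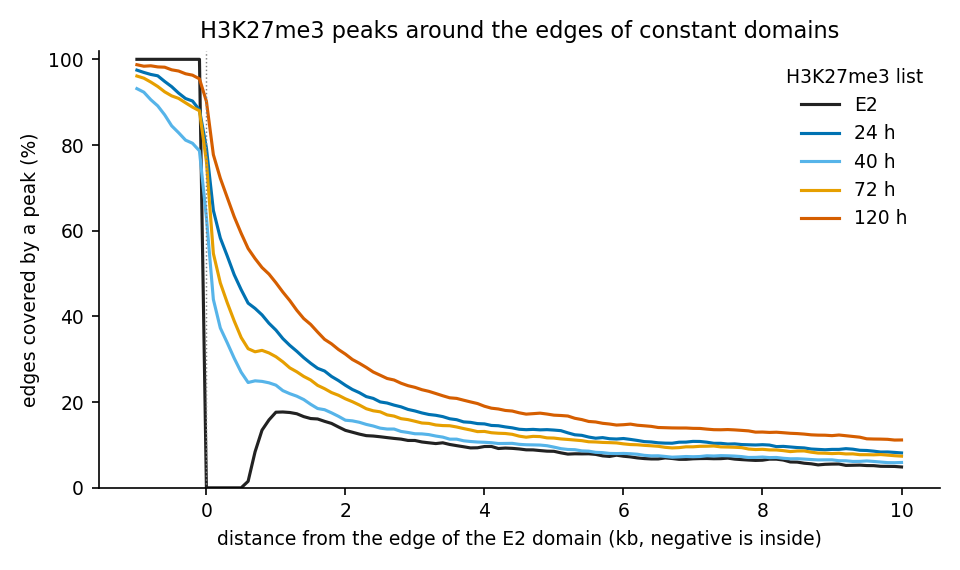
Share of the edges of constant domains (%) covered by an H3K27me3 peak, against the distance from the edge of the E2 domain (kb, negative values inside the domain, where only domains wide enough are counted), with 1 line per list. The 120 h line is the highest at each distance outside, and the E2 line is at 0 up to the smallest gap between peaks and then meets neighbouring domains.

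The members were also sorted by E2 width into 5 classes of 582 to 584. In the narrowest class (146 to 465 bp) the median added at 120 h was 2580 bp, a median ratio of 10.7. In the middle class (904 to 1484 bp) it was 1691 bp, a ratio of 2.45. The widest class (2539 to 12087 bp) added 1910 bp, a ratio of 1.5. At 40 h the same 3 classes added 722.5, 287 and 138 bp. The share of domains wider at 120 h than in E2 ran from 92.5 to 98.1% over the 5 classes. The ratio thus fell steeply with E2 width while the length added at 120 h did not, but E2 width enters both the sorting and the ratio.

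The ranking of the domains by width was only partly kept. Spearman correlations of span over the 2915 domains were 0.39, 0.55, 0.53 and 0.41 between E2 and the lists of 24, 40, 72 and 120 h. Among the other lists they ran from 0.61 between 40 and 120 h to 0.73 between 40 and 72 h. These are descriptions of single libraries that share the positions, and domains joined by 1 peak share its span. The median coefficient of variation of a domain's span over the 5 lists was 46.7%, from 17.2% at the 10th to 93.1% at the 90th percentile.

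The 120 h span was the widest of the 5 in 1841 domains (63.2%) and the 24 h span in 835 (28.6%), while E2 was the widest in 50. E2 was the narrowest in 1767 (60.6%) and 40 h in 671 (23.0%). The 24 h span exceeded the 40 h span in 81.7% of the domains and the 72 h span in 62.8%. The widths at the 3 restored times thus had no rising order with the length of withdrawal. Over chromosomes the median ratio at 120 h ran from 1.88 on X to 3.85 on chromosome 18, and medians were above 1 on 20 of 20 chromosomes in all 4 lists. The order 120, 24, 72, 40 h held on 18 of 20, with 24 h above 120 h on chromosomes 13 and 14.

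Constant domains held most of the length of each H3K27me3 list. Peaks linked to them covered 4.77 Mb in E2 and 7.05, 5.45, 6.31 and 8.52 Mb in the lists of 24, 40, 72 and 120 h. This was 87.1, 77.5, 89.6, 78.3 and 66.0% of the covered length. Between E2 and 120 h the list grew by 7.43 Mb. Of this, 3.75 Mb (50.5%) lay in peaks linked to constant domains, 3.57 Mb (48.0%) in 3925 peaks with no E2 peak, and 0.114 Mb in peaks linked to other E2 domains. At 24 h the corresponding additions were 2.28, 1.46 and -0.114 Mb. At 40 h the list grew by 0.610 Mb, with 0.680 Mb added at constant domains and 0.511 Mb at new places, while the length linked to other E2 domains fell by 0.582 Mb. The other E2 peaks by the rule miss at least 1 list, most often that of 40 h, so this fall is in part set by the rule. A peak that touched both a constant domain and another E2 peak was counted with the constant domains. Growth at the domains already listed and growth at new places were thus of similar size at 120 h.

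**Figure D3:**
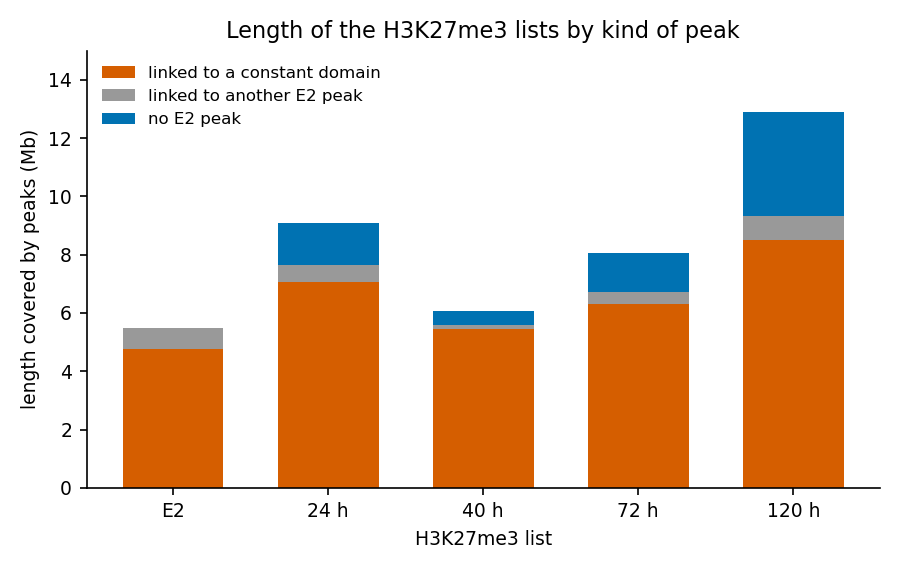
Length covered by H3K27me3 peaks (Mb) in each list, split into peaks linked to a constant domain, peaks linked only to another E2 peak and peaks that overlap no E2 peak. The part linked to constant domains goes from 4.77 Mb in E2 to 8.52 Mb at 120 h, and the part with no E2 peak reaches 3.57 Mb.

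The widest members were broad in every list. The widest E2 peak, chr15:79336549-79348635, spanned 12087 bp in E2 and 14210, 12232, 13967 and 16113 bp in the lists of 24, 40, 72 and 120 h. The next, chr11:118902764-118914324, spanned 11561 bp in E2 and 11622, 11544, 13566 and 14785 bp. Those at 24 and 40 h were within 100 bp of the E2 width. The third, chr2:152766888-152778250, spanned 11363 bp in E2 and 14380, 13909, 13601 and 14493 bp. Its whole E2 width was covered in all lists. Among the 12 widest, E2 widths ran from 9109 to 12087 bp and 120 h spans from 10819 to 28600 bp, with ratios of 1.06 to 3.02. None of the 12 had an H3K27ac peak inside in any of the 6 lists.

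Other members barely moved. Among domains at or above the median E2 width, the 6 with the most even span varied by 0.80 to 2.60% over the 5 lists. The most even, chr15:55138081-55141349, spanned 3269 bp in E2 and 3239, 3251, 3199 and 3247 bp in the others. The next, chr15:98723654-98729949, spanned 6296 bp in E2 and 6444, 6434, 6474 and 6663 bp. Its E2 width was wholly covered in all lists. For chr2:152736165-152740254 the spans were 4090, 4030, 4050, 3958 and 4185 bp, with 120 h the widest. These 6 domains held no H3K27ac peak in any list.

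The 8 highest ratios at 120 h, again among domains of at least the median width, ran from 12.1 to 22.0 and rested on 5 peaks of the 120 h list. In each case a domain of 1189 to 2357 bp had come to lie within a far wider peak. The domain chr15:102789858-102791157 was 1300 bp wide in E2, and its linked peak spanned 34310, 10696, 11966 and 28600 bp in the lists of 24, 40, 72 and 120 h. Of these, the 24 h peak was the widest. The domain chr11:97438848-97440127 was 1280 bp wide in E2 and spanned 2924, 1005, 3557 and 21026 bp. There the wide span was seen at 120 h and not in the restored lists. For chr19:46210260-46211585 the spans were 1326 bp in E2 and 1228, 1463, 9154 and 16093 bp, wide at 72 and 120 h. For chr10:128020160-128021348 they were 1189 bp in E2 and 6353, 6078, 10077 and 15754 bp. Of the 8 domains, 7 lay in clusters of 5 or more members, and none held an H3K27ac peak.

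The 8 lowest ratios ran from 0.12 to 0.47. The domain chr12:16758502-16760733 spanned 2232 bp in E2 and 1728, 224, 938 and 275 bp later. The 275 bp at 120 h is the lowest span of the 8. The domain chr13:113778294-113781827 spanned 3534 bp in E2 and 3421, 401, 755 and 550 bp, so that it was narrow in each list but 24 h. In the same order chr4:139326170-139328501 spanned 2332, 2362, 1446, 273 and 1009 bp. The E2 width was kept at 24 h there as well. Among the 8, 2 held an H3K27ac peak at 120 h, described below, and the other 6 held none in any list.

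Most constant domains had another within 50 kb. With that distance as the limit, 2041 of the 2915 (70.0%) fell into 630 clusters and 874 stood alone. By the same measure 76.2% of all E2 peaks and 46.6% of the 1439 other E2 peaks taken by themselves lay in clusters. These shares move with the number of peaks considered. Of the clusters, 319 were pairs, 101 had 5 or more members and 14 had 10 or more. Members per 100 Mb, counted up to the last listed coordinate of a chromosome, were highest on chromosome 19 (267) and chromosome 11 (251) and lowest on X (10.8), where 18 of 41 E2 peaks were constant (43.9%). Chromosome 10 had the highest share of constant E2 peaks, with 122 of 157 (77.7%).

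The largest cluster, chr15:102740567-103010515, held 39 constant domains and 11 other E2 peaks in 269949 bp. H3K27me3 covered 82064 bp of it in E2 and 143454, 95063, 104574 and 128138 bp in the lists of 24, 40, 72 and 120 h. Coverage was highest at 24 h there, unlike the median locus. H3K27ac covered 2185 bp of the cluster at 24 h, 942 bp in E2 and 0 bp at 120 h. The cluster chr11:96846087-96886617 held 12 members in 40531 bp. H3K27me3 took up 27177 bp in E2 and 32359, 26826, 33209 and 38572 bp, in 13, 7, 9, 8 and 2 peaks. From 67.0% of the cluster in E2 it thus came to 95.2% at 120 h, as 2 peaks. No H3K27ac peak lay in it in any of the 6 lists.

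The cluster chr19:45119808-45245891 held 12 members in 126084 bp, with 32249 bp of H3K27me3 in E2 and 37153, 33036, 33974 and 51942 bp. It is the cluster among those named here with H3K27ac in all 6 lists, covering 2687 bp in E2 and 3904, 3801, 1382, 2010 and 2441 bp at 24, 40, 56, 72 and 120 h. These lengths are over the whole extent of the cluster. At 40, 56 and 72 h 0 of the 704 domains in clusters of 5 or more held H3K27ac, so in those lists all of it lay outside the constant domains. Its neighbour chr19:45296892-45380069, with 7 members, had 27733 bp of H3K27me3 in E2 and 36009, 30997, 34639 and 56710 bp. It held no H3K27ac peak. The cluster chr11:97382652-97524312, with 10 members, went from 31413 bp in E2 over 34764, 29828 and 44577 bp to 62237 bp at 120 h. In each of these 3 clusters the 120 h value is the highest of the 5.

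Domains in clusters spanned more in the other lists than domains that stood alone, at similar E2 widths. Single domains had a median E2 width of 1257 bp and a ratio of 1.73 at 120 h (1.65 to 1.84). Domains in clusters of 2 to 4 had 1098 bp and 2.99 (2.81 to 3.21), and those in clusters of 5 or more had 1252 bp and 3.50 (3.19 to 4.01). At 40 h the ratios were 1.09, 1.41 and 1.35. A peak that joins neighbours counts in full for each of them, so the gap is in part a count of joins. The single domains are free of joins to another constant domain within 50 kb, and they were wider at 120 h by a ratio like that of the 2184 loci. Ratios by cluster size were not computed for all E2 peaks, so their order is not read as a trait of constant domains.

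H3K27ac was not used to choose the domains. An H3K27ac peak overlapped 58 of the 2915 constant domains in E2 (1.99%, 1.51 to 2.57), where the figure for all E2 H3K27me3 peaks was 1.72%. It overlapped 23 at 24 h (0.789%, 0.501 to 1.18; background 0.689%), 10 at 40 h (0.343%, background 0.345%) and 0 at 56 h (background 0.0%), where a count of 0 allows a share of up to 0.103% by 3 counts and 0.127% by the exact interval. At 72 h it overlapped 7 (0.240%, background 0.367%) and at 120 h 45 (1.54%, 1.13 to 2.06; background 1.81%). Acetylation inside was thus rare. The shares in E2 and at 120 h stood above those at 24, 40 and 72 h, but the interval at 24 h reached that at 120 h. The 120 h list is also the longest with 48710 peaks, and its share was 1.03% when both lists were held to their 24930 widest peaks, against 1.85% in E2. The 24 h list has 36845 peaks, more than the 27876 of E2. The 56 h list is the shortest with 6356, and its 0 is not set against the other shares.

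**Figure D4:**
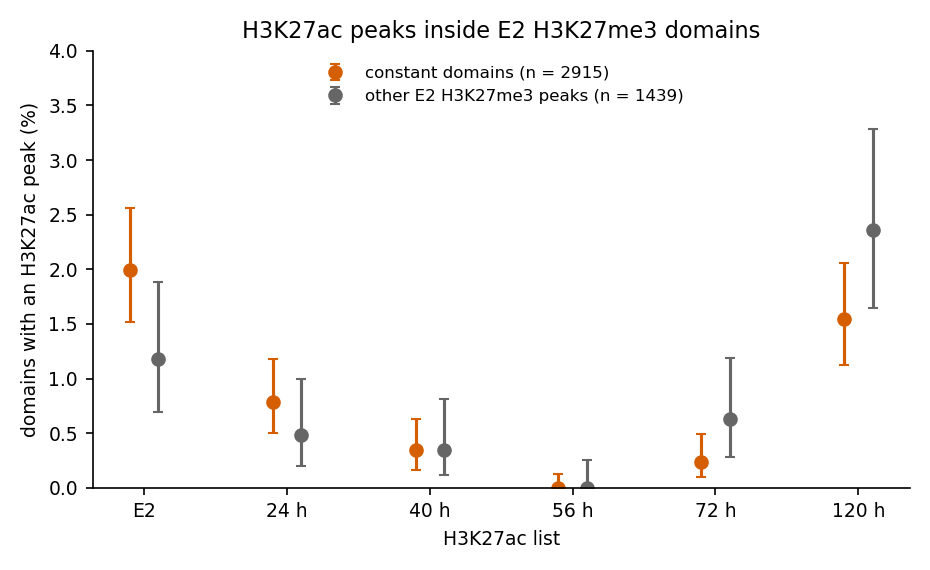
Share of E2 H3K27me3 domains (%) with an H3K27ac peak inside, by H3K27ac list, for 2915 constant domains and 1439 other E2 peaks, with 95% Clopper-Pearson intervals that cover counting error only. The constant domains stand at 1.99% in E2 and 1.54% at 120 h and under 0.8% at 24, 40 and 72 h, with 0 at 56 h in a much shorter list.

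The shares were then set against those of the other E2 peaks. The difference, constant minus other, was 0.808 points in E2 (95% Newcombe interval -0.0245 to 1.53), 0.303 at 24 h (-0.275 to 0.768) and -0.385 at 72 h (-0.958 to 0.00526). At 120 h it was -0.819 points (-1.82 to 0.0241). Each of these intervals takes in 0, so that a difference was not detectable at these counts. The other peaks are narrower and so have less room for an acetylation peak. Per Mb of domain, the centres of H3K27ac peaks numbered 12.4 in constant domains at 120 h (exact Poisson interval 9.42 to 16.0) and 43.9 in the other E2 peaks (29.8 to 62.3). In E2 they numbered 14.5 (11.3 to 18.3) and 17.0 (8.78 to 29.7). At 72 h they numbered 1.68 (0.724 to 3.31) and 14.2 (6.79 to 26.1). Measured by length, acetylation was sparser in the constant domains at 72 and 120 h, and the intervals overlapped in E2 and at 24 and 40 h. The rule required an H3K27me3 peak at 72 and 120 h in the constant domains and not in the others. The contrast at these times is therefore not independent of the rule and is a description. Of the 34 other E2 peaks acetylated at 120 h, 17 were among the 234 found in no other H3K27me3 list. Only 67.3% of the other E2 peaks were overlapped by the H3K27me3 list of 120 h, and 45.8% by that of 72 h. Among domains of 500 to 1000 bp, an H3K27ac peak at 120 h was present in 9 of 617 constant and 12 of 408 other ones, with intervals of 0.669 to 2.75% and 1.53 to 5.08% that overlap. In E2 the counts there were 9 and 4. Under 500 bp they were 3 of 645 constant and 12 of 906 other ones in E2, and from 1000 to 3000 bp 34 of 1222 and 1 of 125. The sign of the E2 difference thus changed with width, and the intervals overlapped in each of these classes.

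Around the constant domains H3K27ac was denser than inside. In E2 the peaks covered 4.54 bp per kb inside constant domains and 6.96 bp per kb in the 20 kb on either side, where bases near several domains count for each. The 24 h list gave 1.36 and 6.86, the 40 h list 0.453 and 4.85, the 72 h list 0.375 and 3.24 and the 120 h list 4.98 and 10.2. The ratio of inside to flank was 0.653 in E2 and 0.198, 0.0934, 0.116 and 0.488 in the same order. For the other E2 peaks it was 1.40 in E2 and 0.527, 0.518, 1.83 and 2.53, above 1 in E2 and at 72 and 120 h. The rule required an H3K27me3 peak in the constant domains at 24, 40, 72 and 120 h, while each other E2 peak missed at least 1 list. The contrast between the groups at these times is therefore not independent of the rule and is a description. At 72 h the inside values rest on 7 constant and 9 other domains. Over the whole 20 kb the flanks of the constant domains at 24 h had nearly the E2 value. Close to the edge they did not, with 3.55 against 5.94 bp per kb within 1 kb and 4.40 against 5.37 from 2 to 5 kb. Between 20 and 50 kb away the E2 list covered 11.4 bp per kb and the 120 h list 18.2. The nearest H3K27ac peak lay within 10 kb of 19.8% of the constant domains in E2 and of 17.5% at 120 h, and the median distance was 31.6 and 33.2 kb. For the other E2 peaks the shares were 9.52 and 12.8%, and the median distances 50.1 and 46.45 kb.

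**Figure D5:**
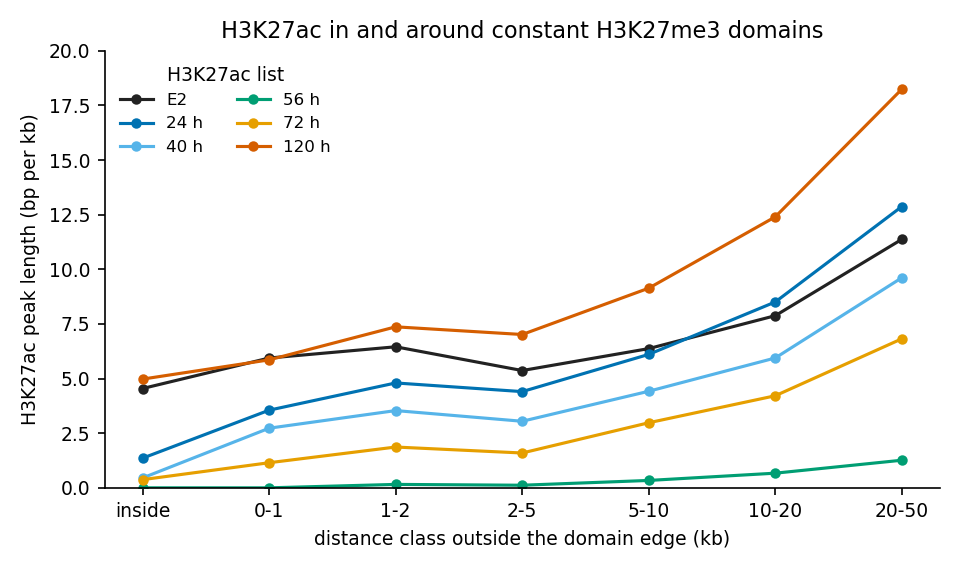
Length of H3K27ac peaks (bp per kb) inside constant H3K27me3 domains and in 6 distance classes outside their edges (kb), with 1 line per H3K27ac list. Inside values are near 5 bp per kb in E2 and at 120 h and under 1.5 in the restored lists, and all lines are highest at 20 to 50 kb.

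The acetylated domains of the restored lists were nearly all acetylated in E2. All 23 domains of the 24 h list were among the 58 of E2, and all 10 of the 40 h list were among the 23. At 72 h 6 of the 7 were among the 58, and all 7 were also acetylated at 120 h. The 120 h domains were a mixture, with 17 of 45 (37.8%) shared with the 58 of E2 (29.3%) and 28 without an E2 peak. Over all lists 86 domains carried H3K27ac at some time (2.95%). The commonest patterns were E2 alone (29 domains) and 120 h alone (27). Only 3 domains were acetylated in all lists but 56 h.

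Both marks were called on the same bases. In E2 the 21668 bp of H3K27ac inside constant domains lay on H3K27me3 peaks by construction. At 120 h 19698 of 23725 bp (83.0%) lay on an H3K27me3 peak of the 120 h list, in 44 of 45 domains. At 72 h this was 866 of 1788 bp (48.4%) in 5 of 7 domains. Whether such bases stand for different cells or alleles cannot be read from bulk lists. Of the H3K27ac peak centres inside domains, 36 of 69 in E2 and 31 of 59 at 120 h fell in the middle 50% of the domain. At 24 h these were 9 of 25, and at both 40 and 72 h 3 of 8.

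Domains that had H3K27ac in E2 and not at 120 h were fully covered by H3K27me3 at 120 h in 40 of 41 cases (97.6%). In those with H3K27ac at 120 h and not in E2 this was so in 18 of 28 cases (64.3%), and in those with no H3K27ac in any list in 2322 of 2829 (82.1%). By length, H3K27me3 peaks covered 99.8, 91.6 and 97.5% of these groups at 120 h. Without chr11:75838537-75841900, the least covered domain of the second group, its value was 95.2%. The 17 domains with H3K27ac in both lists were covered to 88.9%, or 98.9% without chr13:113778294-113781827. The groups were formed from the 120 h acetylation list and the numbers are small, so they are given without a test.

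The longest stretches of H3K27ac in E2 lay in chr19:55814378-55820085, a domain of 5708 bp. It held 1456 bp of H3K27ac in 4 peaks in E2 and 0 bp in the other 5 lists. Its H3K27me3 span was 11682, 9571, 12573 and 11888 bp at 24, 40, 72 and 120 h, with the E2 width wholly covered each time. The domain chr8:14887949-14889565 (1617 bp) held 1278 bp of H3K27ac in E2 and 429, 263, 0, 216 and 859 bp at 24, 40, 56, 72 and 120 h. It was acetylated in each list but 56 h, while H3K27me3 covered all of it in each list. The domain chr1:62751774-62753595 (1822 bp) had 769 bp of H3K27ac in E2, then 515 and 69 bp in the 24 and 40 h lists and none later. Its H3K27me3 span went from 1822 bp in E2 over 3366, 3341 and 5720 bp to 6775 bp. Likewise chr2:84725167-84726651 (1485 bp) had 697 bp in E2, 440 bp at 24 h and 0 bp in the rest, with spans of 2827, 4397, 5136 and 6582 bp. In both domains the 120 h list had the widest H3K27me3 span and no H3K27ac.

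The domain with most H3K27ac at 120 h was chr11:75838537-75841900 (3364 bp). It held 2378 bp in 7 peaks at 120 h and 0 bp in the other lists. Its H3K27me3 span was 3364 bp in E2 and 3269, 2161, 1476 and 1367 bp in the lists of 24, 40, 72 and 120 h. Acetylation covered 1127 bp of what H3K27me3 still covered. The next, chr13:113778294-113781827, held 206 bp in E2 and 151, 0, 0, 641 and 1629 bp in the lists of 24, 40, 56, 72 and 120 h. Its H3K27me3 spans are given above, and at 120 h none of the H3K27ac lay on an H3K27me3 peak. These are the 2 domains that stood among the lowest 8 in H3K27me3 ratio. Others kept the mark: chr19:24973524-24977957 (4434 bp) held 1324 bp of H3K27ac at 120 h and none before, and its H3K27me3 span was 8706 bp at 120 h. In chr6:29477012-29478352 H3K27ac covered all 1341 bp at 120 h, after 166 bp in E2, and so did H3K27me3.

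The shares with H3K27ac were also counted by how crowded the constant domains were. In E2 it was found in 30 of 874 single domains (3.43%), 24 of 1337 in clusters of 2 to 4 (1.80%) and 4 of 704 in clusters of 5 or more (0.568%). At 120 h it was found in 24 (2.75%), 18 (1.35%) and 3 (0.426%) of them. The 3 groups had similar E2 widths, as given above. Domains within a cluster are neighbours and share their surroundings, so these shares have no test. The same split over all E2 peaks was not computed, so the fall with crowding is not read as a trait of constant domains.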

How the data were processed

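ChIP-seq peak lists of H3K27me3 (5 libraries) and H3K27ac (6 libraries) of ER-Hoxa9-Lys-GFP cells were used out of a series of 30 samples; the other targets and the inputs were not used here. The files deposited by the authors hold the chromosome, start and end of each peak and no score. Bowtie2 2.0, BWA and MACS2 2.0 are named, with the builds mm9 and mm10, per the submitters' processing notes. Their assignment to files, the threshold for peaks and the role of inputs are not given in the sources used here. Coordinates were treated as mm9, since the lists reached 197003115 on chromosome 1 where the last gene of the GRCm38.p6 table ends at 195291439. No gene was therefore named and no sequence printed. Positions are 1-based, on chromosomes 1 to 19 and X.

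The analysis used Python 3.11.15, NumPy 2.4.6 and SciPy 1.17.1, and its interval code was tested on simulated data. An overlap was 1 bp, a fold 1.5, a cluster a chain of members at most 50 kb apart and a flank 20 kb. Shares have 95% Clopper-Pearson intervals, differences Newcombe intervals, medians binomial order-statistic intervals and peak densities exact Poisson intervals. With 1 library per condition, these intervals cover counting over peaks only, and the variation between libraries is unknown.

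Members, measures and lists were chosen with earlier results of these data known. Regions were named by rule: the 12 widest members; among members of at least median width the 8 highest and 8 lowest ratios at 120 h and the 6 most even; the 8 with most H3K27ac in E2 and at 120 h; the 6 largest clusters by members and by summed width; and the 4 nearest to the 1 bp limit on either side. The text prints part of each set.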

Additional observations from a re-analysis of the deposited data

How the results depend on the processing

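Of 42 values of 7 results recomputed under other settings, 25 stayed within the counting interval of the reported value, or within 1.5 times it for the count. Among the 7 results only the median ratio has a direction, and it did not change. With at least 50% of the E2 peak covered in each list, 55.3% of E2 domains were constant and 65.1% of them in clusters. With peaks within 1 kb merged, the median ratio at 120 h was 2.01, 66.9% were at least 1.5-fold wider and 57.3% in clusters. With lists cut to 3845 widest peaks, 63.6% were constant and 66.5% in clusters. Counted from the 120 h list, 33.7% of its peaks were constant. With loci joined over the lists, an alternative chosen after seeing the data, the median ratio was 1.78 and 63.5% passed the fold. A fold of 2 gave 60.2% and the lower planned fold 84.8%. H3K27ac peaks wholly inside gave 1.44% in E2 and 1.03% at 120 h, and lists cut to 24930 H3K27ac peaks 1.03% at 120 h. Neighbours within 20 or 100 kb gave 62.0 and 76.2% in clusters. No paired analysis was possible because each group has 1 library and no result comes from a test. Depth is unknown, so a peak missing from a list may be a weak one.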

Other observations

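Within constant domains, H3K27ac on the bases that all 5 H3K27me3 lists covered was compared with H3K27ac on the remaining bases. In E2 it covered 4.64 bp per kb of the shared bases and 4.14 bp per kb of the rest. At 120 h the values were 4.24 and 8.04, and at 72 h 0.159 and 1.28, on 3843 kb of shared bases. The shared bases were chosen by the 120 h and 72 h H3K27me3 lists too, so these values are a description.

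E2 domains outside the group differed among themselves in H3K27ac at 120 h. An H3K27ac peak lay in 17 of the 234 E2 domains found in no other H3K27me3 list (7.27%), in 10 of 279 found in 1 list (3.58%), in 3 of 359 found in 2 lists (0.836%) and in 4 of 567 found in 3 lists (0.705%). Constant domains stood at 1.54%, with a larger median width of 1183 bp. The classes were formed in part from the 120 h H3K27me3 list. Domains found in no other list had no H3K27me3 peak at 120 h by definition, so these shares are a description. In E2 an H3K27ac peak lay in 2.14, 1.08, 0.557 and 1.235% of the same classes outside the group, and in 1.99% of the constant domains.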
